A study of Danio rerio with 14 samples.

Results

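The genes described here code for the enzymes of the tricarboxylic acid (TCA) cycle with the pyruvate dehydrogenase complex that feeds it, and for the proteins that take up, activate and oxidise fatty acids, in hearts of *il11a*OE and control zebrafish. They were taken by symbol from a list of 49, which was drawn up with earlier results of these data known. Matched to the Ensembl identifiers of the count tables, 48 of the 49 were found among 32520 gene identifiers. Of these, 22 are TCA genes and 26 are fatty acid oxidation (FAO) genes, and *mdh1ab* was dropped because no identifier carried its name.

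Adult heart muscle makes most of its ATP in mitochondria, and fatty acids are its main fuel. Fatty acids are bound in the cytoplasm, activated to acyl-CoA, carried through the mitochondrial membranes by the carnitine shuttle and shortened stepwise by beta-oxidation, which yields acetyl-CoA. The TCA cycle burns acetyl-CoA from fatty acids, or from pyruvate by way of pyruvate dehydrogenase, and hands the electrons to the respiratory chain, and the coactivator Ppargc1a with nuclear receptors such as Esrra is known to drive many of these genes together.

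Bulk RNA-seq was done on uninjured hearts. The *il11a*OE fish carried *actb2:loxp-BFP-stop-loxp-il11a* and *cmlc2:creER*, in which the cardiomyocyte promoter *cmlc2* drives a tamoxifen-dependent Cre that removes a stop cassette, so that *il11a* comes from the *actb2* promoter. Controls carried the *actb2* transgene without *cmlc2:creER*. All fish were adults bathed in 5 µM tamoxifen for 24 h, and hearts were collected 7 days (7 dpt) or 7 months (7 mpt) after treatment. Each library came from pooled hearts, with 3 *il11a*OE and 3 control libraries at 7 dpt and 4 and 4 at 7 mpt. Levels are given as CPM, counts scaled to a common library size, and are not set against each other across the time points, because read pairs were counted at 7 dpt and single mates at 7 mpt.

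The libraries held 61691132 to 80703699 counts on genes at 7 dpt and 73275884 to 130058630 at 7 mpt. The induced gene *il11a* was measured at 386, 325 and 370 CPM in *il11a*OE hearts of 7 dpt, against 47.3, 41.6 and 53.7 CPM in controls. The 7 mpt level was 340.4, 262, 336 and 433 CPM in *il11a*OE hearts, against 70.7, 90.5, 41.0 and 41.2 CPM in controls, so that every library fitted its label. One library stood apart: control replicate 2 of 7 dpt held skeletal muscle transcripts, with *pvalb1* at 815 CPM, *pvalb2* at 905 CPM and *tnnt3b* at 328 CPM, while *tnnt3b* did not exceed 3.04 CPM in the other libraries. The summed level of the skeletal muscle list was higher in every control library than in any *il11a*OE library of its time. The sums were 8.14 to 10.7 CPM in *il11a*OE hearts of 7 dpt, against 176, 2989 and 165 CPM in controls. At 7 mpt they were 4.94 to 7.65 CPM in *il11a*OE hearts, against 54.4 to 173 CPM in controls, and 3 of the 12 genes were at 0 throughout. Not every gene of the list was higher in controls of 7 mpt. The log2 fold changes of *il11a*OE over control ran from -5.38 to 1.71 over its 8 tested genes. The part of skeletal muscle in the results was not tested, and the counts of 7 dpt are also given without control replicate 2. The libraries of 7 mpt carry a letter F or M in their names, replicates 1 and 2 with F and replicates 3 and 4 with M in both groups, and values within a letter are given where a call was lost there or the controls split by letter. The cardiomyocyte gene *myl7* was among the abundant transcripts in every library, at 4676 to 12194 CPM in *il11a*OE hearts and 13301 to 22029 CPM in controls.

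Transcripts of both pathways were lower in *il11a*OE hearts at both time points. At 7 dpt, 19 of 22 TCA genes and 23 of 25 tested FAO genes fell, and none rose (edgeR's quasi-likelihood test, Benjamini-Hochberg adjusted p under 0.05). Of all 19647 genes tested at 7 dpt, 17.1% were called lower and 20.2% higher, 37.2% in all. The median log2 fold change of *il11a*OE over control was -0.70 for the TCA genes and -0.80 for the FAO genes, against 0.02 for all genes tested. At an unadjusted p under 0.05 the number of TCA or FAO genes that were higher was also 0, and DESeq2 called 0 higher as well. Without control replicate 2 of 7 dpt, 19 TCA and 23 FAO genes were again called lower, with medians of -0.69 and -0.83, out of 22 and 26 tested. Of all 20228 genes tested without that library, 2919 were called lower and 3382 higher.

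At 7 mpt, 20 of 22 TCA genes and 24 of 26 FAO genes fell and none rose by the same test, with 12.2% of 18689 genes called lower and 14.2% higher, 26.4% in all. The medians were -1.19 for the TCA genes and -1.57 for the FAO genes, against 0.03 for all genes tested, and no member was higher at an unadjusted p under 0.05 or by DESeq2. Genes called and more than 2-fold lower numbered 1 of 22 TCA and 8 of 25 FAO genes at 7 dpt, where 5.49% of all genes met both conditions. Without control replicate 2 they numbered 1 and 9, where 1048 of all 20228 genes met both. At 7 mpt they numbered 16 of 22 TCA and 23 of 26 FAO genes, against 6.44% of all genes. All 19 TCA genes called at 7 dpt were called again at 7 mpt, as were 22 FAO genes, and *cpt1aa* was called at 7 dpt only. Within the libraries of letter F, 17 TCA and 20 FAO genes were called lower at 7 mpt, and within letter M 19 and 23, in a fit chosen after seeing the data. The shares of all genes called lower within a letter are not given here. The calls lost were those of *idh3a*, *idh3b*, *cpt2*, *acads* and *slc25a20* within F, and those of *suclg2* and *acaa2* within both letters, with 2 libraries in each group.

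**Figure D1:**
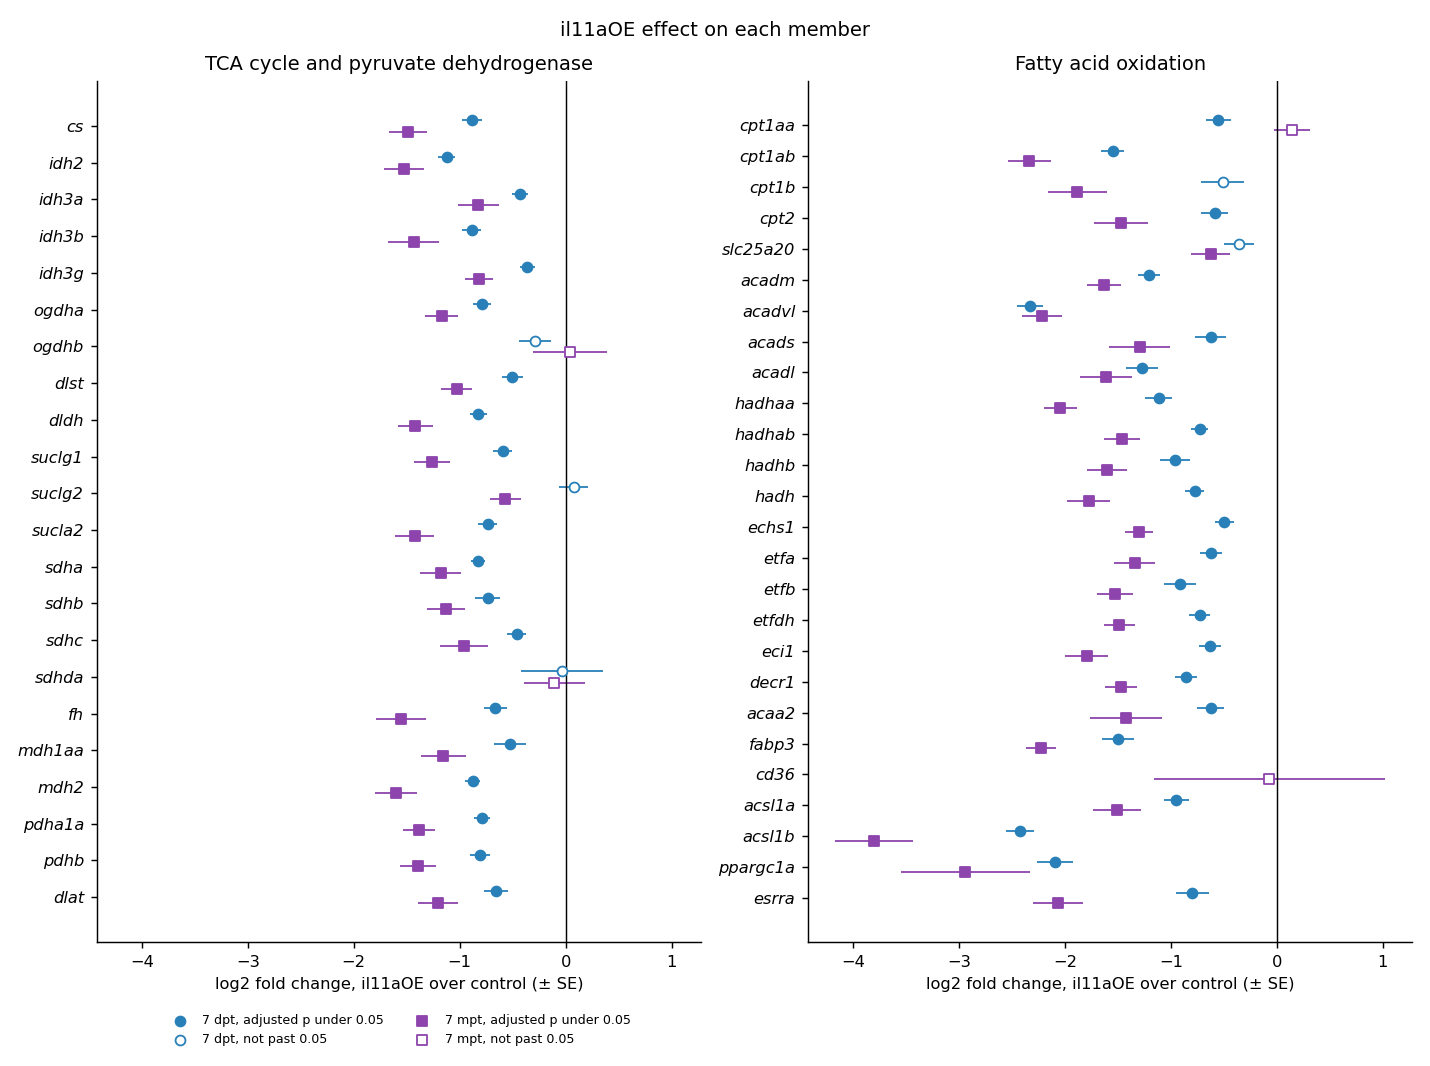
Log2 fold change of *il11a*OE over control (x axis, ± SE) for each TCA gene (left) and FAO gene (right), with circles for 7 dpt and squares for 7 mpt and filled symbols where the edgeR adjusted p was under 0.05. Nearly all symbols lie left of 0, and *suclg2* at 7 dpt and *ogdhb* and *cpt1aa* at 7 mpt are the open symbols right of it.

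The summed level of the 22 TCA genes was 8479, 8398 and 7660.2 CPM in *il11a*OE hearts of 7 dpt, against 14717, 14362 and 14352 CPM in controls. The 7 mpt sum was 6681, 4458, 5849 and 6884 CPM in *il11a*OE hearts, against 13824, 13888, 17768 and 16645 CPM in controls. The groups did not overlap at either time, and *il11a*OE replicate 2 of 7 mpt was the lowest of its group for 20 of the 22 genes. The 26 FAO genes summed to 4603, 3996 and 3763 CPM in *il11a*OE hearts of 7 dpt, against 11684, 10733 and 10407 CPM in controls. At 7 mpt the FAO sum was 2565, 1922, 2147 and 2166 CPM in *il11a*OE hearts, against 7085, 7797, 8886 and 8554 CPM in controls. The mean FAO sum of *il11a*OE hearts was thus 37.7% of the control mean at 7 dpt and 27.2% at 7 mpt, and the TCA sum 56.5% and 38.4%.

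Taking single genes, every *il11a*OE library lay below every control library for 19 of 22 TCA and 25 of 25 tested FAO genes at 7 dpt, where 24.3% of all genes tested did so and 52.6% had groups that did not overlap in either direction. Without control replicate 2 this held for 19 of 22 and 25 of 26, against 27.7% of all genes. At 7 mpt this held for 20 of 22 TCA and 24 of 26 FAO genes, against 13.8% of all genes, with 30.8% not overlapping in either direction.

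The first steps of the cycle join acetyl-CoA to oxaloacetate and oxidise the citrate that results. Citrate synthase, *cs* (chromosome 23, 33907899 to 33928316 in GRCz11), had 503, 571 and 475 CPM in *il11a*OE hearts of 7 dpt, against 998, 952 and 901 CPM in controls, a log2 fold change of -0.88 ± 0.10 (SE, edgeR adjusted p = 0.000954). At 7 mpt *cs* had 486, 317, 404 and 443 CPM in *il11a*OE hearts, against 985, 1063, 1407 and 1185 CPM in controls (-1.49 ± 0.18, adjusted p = 0.000379). Every *il11a*OE library lay below every control library of its time.

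The mitochondrial NADP-linked isocitrate dehydrogenase *idh2* (chromosome 18, 26096814 to 26101800) was the member with the highest level per kilobase of exon in controls at both times, and the TCA gene that fell most at 7 dpt. Its level was 1284, 1251 and 1154 CPM in *il11a*OE hearts, against 2804, 2637 and 2592 CPM in controls (-1.12 ± 0.08, edgeR adjusted p = 0.000202). At 7 mpt it had 1111, 698, 881 and 1043 CPM in *il11a*OE hearts, against 2278, 2478, 3259 and 2725 CPM in controls (-1.52 ± 0.19, adjusted p = 0.000465). The subunits of the NAD-linked enzyme that carries the cycle forward, *idh3a*, *idh3b* and *idh3g*, also fell at both times, with log2 fold changes of -0.43, -0.89 and -0.36 at 7 dpt and -0.82, -1.43 and -0.82 at 7 mpt. Within letter F the changes of *idh3a* and *idh3b* at 7 mpt missed the threshold, at -0.61 (adjusted p = 0.0785) and -1.16 (adjusted p = 0.055).

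The oxoglutarate dehydrogenase complex takes the cycle to succinyl-CoA, and its E1 subunit is coded by *ogdha* and *ogdhb*. *ogdha* had 604, 636 and 563 CPM in *il11a*OE hearts of 7 dpt, against 1101, 1024 and 979.8 CPM in controls (-0.79 ± 0.09, edgeR adjusted p = 0.000959). Its 7 mpt levels were 407, 284, 367 and 373 CPM in *il11a*OE hearts, against 743, 753, 906 and 820.2 CPM in controls (-1.17 ± 0.15, adjusted p = 0.000554). *ogdhb* was far scarcer, at 2.73 CPM per kilobase against 161 for *ogdha* in controls of 7 dpt, and its groups overlapped at both times.

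For *ogdhb* the values were 15.8, 13.97 and 14.1 CPM in *il11a*OE hearts of 7 dpt, against 14.8, 17.1 and 21.9 CPM in controls (adjusted p = 0.181). At 7 mpt they were 9.58, 23.9, 9.11 and 8.09 CPM in *il11a*OE hearts, against 12.7, 15.1, 8.92 and 12.5 CPM in controls (adjusted p = 0.952). *il11a*OE replicate 2 of 7 mpt stood above all other libraries of that time for this gene. Of the exon length of *ogdhb*, 7.42% is shared with *pargl* on the other strand, where unstranded counting leaves the fragments out of both. The E2 subunit *dlst* fell by 0.50 at 7 dpt and 1.03 at 7 mpt on the log2 scale.

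The E3 subunit, listed as *dldh* (dihydrolipoamide dehydrogenase), serves both the oxoglutarate and the pyruvate dehydrogenase complexes. It had 325, 324 and 292 CPM in *il11a*OE hearts of 7 dpt, against 552, 540.4 and 571 CPM in controls (-0.82 ± 0.08, edgeR adjusted p = 0.000606). The 7 mpt libraries gave 263, 185, 244 and 267 CPM in *il11a*OE hearts, against 545, 598, 709 and 712 CPM in controls (-1.42 ± 0.17, adjusted p = 0.000321).

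Succinyl-CoA ligase makes a nucleoside triphosphate directly. It pairs the alpha subunit *suclg1* with a beta subunit, *sucla2* for the ATP-forming and *suclg2* for the GTP-forming enzyme. *suclg1* and *sucla2* fell at both times, *suclg1* by 0.60 and 1.26 on the log2 scale. *sucla2* had 209.7, 215 and 185 CPM in *il11a*OE hearts of 7 dpt, against 352, 337 and 328 CPM in controls (-0.74 ± 0.09, edgeR adjusted p = 0.00124). After 7 months it had 172, 124, 177 and 169 CPM in *il11a*OE hearts, against 333, 387, 512 and 492 CPM in controls (-1.43 ± 0.18, adjusted p = 0.00053).

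The GTP-forming subunit *suclg2* differed from its partner at 7 dpt. It had 30.9, 36.2 and 27.1 CPM in *il11a*OE hearts, against 34.4, 27.4 and 27.4 CPM in controls, and these groups overlapped (0.08 ± 0.14, edgeR adjusted p = 0.70). The call came at 7 mpt, with 26.4, 20.3, 25.3 and 30.4 CPM in *il11a*OE hearts, against 32.7, 40.0, 41.4 and 37.7 CPM in controls (-0.57 ± 0.15, adjusted p = 0.0181), a call lost without control replicate 3 of 7 mpt (adjusted p = 0.0537) and within either letter alone (0.0801 within F and 0.1248 within M). Per kilobase, the *sucla2* to *suclg2* ratio was 6.74 to 7.73 in *il11a*OE hearts of 7 dpt, against 11.6 to 13.9 in controls, and 6.29 to 7.92 in *il11a*OE hearts of 7 mpt, against 10.96 to 14.8 in controls, with no overlap at either time.

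Succinate dehydrogenase is both a TCA enzyme and complex II of the respiratory chain. Its flavoprotein subunit *sdha* had 408, 424 and 409 CPM in *il11a*OE hearts of 7 dpt, against 734, 746 and 721 CPM in controls (-0.83 ± 0.07, edgeR adjusted p = 0.00034). By 7 mpt the values were 362, 245, 331 and 436 CPM in *il11a*OE hearts, against 729, 658, 880.1 and 847 CPM in controls (-1.18 ± 0.19, adjusted p = 0.00178). *sdhb* and *sdhc* fell as well, by 0.74 and 0.46 at 7 dpt and by 1.13 and 0.96 at 7 mpt on the log2 scale.

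The membrane anchor gene *sdhda* is the exception among the listed subunits. *sdhda* reached 2.43 to 6.56 CPM over all libraries and was not called at either time (adjusted p = 0.956 at 7 dpt and 0.837 at 7 mpt). Its paralogue *sdhdb*, from the wider list below, was the more abundant and fell, with means of 67.9 CPM in *il11a*OE hearts and 107 CPM in controls at 7 dpt (-0.65, edgeR adjusted p = 0.00106) and of 36.1 CPM in *il11a*OE hearts and 83.4 CPM in controls at 7 mpt (-1.21, adjusted p = 0.0011).

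The last steps turn fumarate into oxaloacetate. Fumarase, *fh*, fell by 0.66 at 7 dpt and 1.55 at 7 mpt on the log2 scale, but its level is uncertain. A second identifier for it on the unplaced scaffold KZ116043.1 took 1815 to 3171 further counts at 7 dpt, against 12462 to 17347 on chromosome 12, and 1686 to 10874 at 7 mpt, against 6196 to 24030. The mitochondrial malate dehydrogenase *mdh2* (chromosome 10, 33382858 to 33394568) was the TCA gene that fell most at 7 mpt. It had 1255, 786, 1182 and 1355 CPM in *il11a*OE hearts, against 3237, 3047, 3933 and 3658 CPM in controls (-1.60 ± 0.20, edgeR adjusted p = 0.000398).

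At 7 dpt *mdh2* had 2140.3, 2081 and 1979.7 CPM in *il11a*OE hearts, against 3751, 3776 and 3852 CPM in controls (-0.88 ± 0.07, adjusted p = 0.000321). A neighbouring gene, *zgc:153345*, shares 11.9% of its exon length on the same strand, and fragments in the shared stretch were not counted. The cytosolic malate dehydrogenase *mdh1aa*, part of the malate-aspartate shuttle, had 881, 629 and 635 CPM in *il11a*OE hearts of 7 dpt, against 1019, 962 and 1102 CPM in controls (-0.52 ± 0.15, adjusted p = 0.0322). This was the TCA call closest to the threshold: it was lost on leaving out control replicate 1 or 3 or *il11a*OE replicate 2 or 3 of 7 dpt, with adjusted p of 0.0737 to 0.105. At 7 mpt *mdh1aa* had 589, 369.5, 487 and 595 CPM in *il11a*OE hearts, against 1034, 869, 1159.9 and 1479 CPM in controls (-1.15 ± 0.21, adjusted p = 0.00345).

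Pyruvate dehydrogenase brings carbon from glycolysis into the cycle, and its 3 listed subunits fell at both times. The E1 alpha subunit *pdha1a* had 462, 497 and 474 CPM in *il11a*OE hearts of 7 dpt, against 797, 861 and 819 CPM in controls (-0.79 ± 0.07, edgeR adjusted p = 0.000568). At 7 mpt it had 548, 429, 486 and 602 CPM in *il11a*OE hearts, against 1265, 1253, 1479.7 and 1389.8 CPM in controls (-1.38 ± 0.15, adjusted p = 0.000237). In every *il11a*OE library the level stayed under every control library of its time.

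The E1 beta subunit *pdhb* had 243, 263 and 216 CPM in *il11a*OE hearts of 7 dpt, against 442, 409 and 412 CPM in controls (-0.81 ± 0.10, adjusted p = 0.00131). Its 7 mpt levels were 202, 146, 170.3 and 236 CPM in *il11a*OE hearts, against 472, 463, 552 and 500.0 CPM in controls (-1.40 ± 0.17, adjusted p = 0.000386). The E2 subunit *dlat* fell by 0.66 and 1.203 on the log2 scale.

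Fatty acids enter the pathway bound to carrier proteins. The gene for the heart-type fatty acid binding protein *fabp3* (chromosome 19, 42955280 to 42993306) had 368, 259.6 and 273 CPM in *il11a*OE hearts of 7 dpt, against 862, 902 and 782 CPM in controls (-1.50 ± 0.15, edgeR adjusted p = 0.000706). The 7 mpt libraries gave 155, 151, 157 and 181 CPM in *il11a*OE hearts, against 652, 732, 856 and 774 CPM in controls (-2.23 ± 0.14, adjusted p = 3.09e-05). The fatty acid transporter *cd36* stayed under 1 CPM in all libraries, was too low to be tested at 7 dpt and was not called at 7 mpt.

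Acyl-CoA synthetases activate fatty acids, and *acsl1b* (chromosome 14, 937194 to 970853) fell most of all members at both times. It had 232, 206 and 182 CPM in *il11a*OE hearts of 7 dpt, against 1105, 1233 and 986 CPM in controls (-2.42 ± 0.13, edgeR adjusted p = 8.54e-05). After 7 months it had 83.9, 48.8, 49.5 and 40.0 CPM in *il11a*OE hearts, against 366, 787, 984 and 961 CPM in controls (-3.80 ± 0.37, adjusted p = 0.000135). Control replicate 1 of 7 mpt was low in its group, and the log2 fold change was -3.12 within letter F and -4.44 within letter M.

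Its paralogue *acsl1a* fell less, with 80.5, 64.2 and 73.7 CPM in *il11a*OE hearts of 7 dpt, against 156, 128 and 138 CPM in controls (-0.95 ± 0.12, adjusted p = 0.00151). By 7 mpt the values were 45.0, 41.6, 65.2 and 35.5 CPM in *il11a*OE hearts, against 116, 98.3, 161 and 157 CPM in controls (-1.51 ± 0.23, adjusted p = 0.00121). In controls *acsl1b* was the more abundant of the pair in every library: per kilobase, the *acsl1b* to *acsl1a* ratio was 1.60 to 2.07 in *il11a*OE hearts of 7 dpt, against 4.57 to 6.21 in controls. The 7 mpt ratio was 0.491 to 1.204 in *il11a*OE hearts, against 2.04 to 5.18 in controls.

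The carnitine shuttle moves long-chain acyl groups into the mitochondrion, and carnitine palmitoyltransferase 1 is its regulated step. Of the 3 genes for it, *cpt1ab* (chromosome 25, 23591990 to 23645806) had 169.8, 144 and 165 CPM in *il11a*OE hearts of 7 dpt, against 512, 469 and 422 CPM in controls (-1.55 ± 0.11, edgeR adjusted p = 0.000195). At 7 mpt it had 69.1, 39.0, 45.0 and 39.1 CPM in *il11a*OE hearts, against 229, 245, 234 and 264 CPM in controls (-2.34 ± 0.20, adjusted p = 8.79e-05).

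In mammals the *CPT1B* product is the muscle form of the enzyme. Zebrafish *cpt1b* had 255, 291 and 167 CPM in *il11a*OE hearts of 7 dpt, against 367, 328 and 322 CPM in controls, which did not overlap but missed the threshold (-0.51 ± 0.20, adjusted p = 0.0924). DESeq2 called it (adjusted p = 0.0289), as did edgeR without *il11a*OE replicate 2 of 7 dpt (adjusted p = 0.0485). Its 7 mpt levels were 33.3, 38.0, 13.9 and 29.9 CPM in *il11a*OE hearts, against 125, 110.3, 99.8 and 89.3 CPM in controls (-1.88 ± 0.28, adjusted p = 0.00108). An unnamed gene on the same strand shares 19.8% of its exon length.

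The third gene, *cpt1aa*, had 17.4, 15.1 and 16.3 CPM in *il11a*OE hearts of 7 dpt, against 20.7, 27.1 and 23.8 CPM in controls (-0.55 ± 0.12, adjusted p = 0.0113). At 7 mpt its groups overlapped, at 11.8, 11.5, 11.98 and 11.97 CPM in *il11a*OE hearts, against 9.53, 9.004, 10.02 and 14.2 CPM in controls (0.14 ± 0.17, adjusted p = 0.597). The 3 genes were thus not lowered in proportion. Per kilobase, *cpt1ab* stood 6.70 to 7.11 times over *cpt1aa* in *il11a*OE hearts of 7 dpt, against 12.1 to 17.4 times in controls, and 2.29 to 4.11 times in *il11a*OE hearts of 7 mpt, against 12.99 to 19.1 times in controls.

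Against *cpt1b*, the same ratio was 0.344 to 0.69 in *il11a*OE hearts of 7 dpt and 0.913 to 0.995 in controls, while it overlapped at 7 mpt, at 0.713 to 2.25 in *il11a*OE hearts and 1.27 to 2.05 in controls. The inner-membrane transferase *cpt2* fell by 0.58 at 7 dpt and 1.47 at 7 mpt on the log2 scale, with -0.90 within letter F (adjusted p = 0.0642) and -2.001 within letter M. The carnitine-acylcarnitine carrier *slc25a20* was not called at 7 dpt (-0.36, adjusted p = 0.091, with DESeq2 0.0474) and was called at 7 mpt (-0.62, adjusted p = 0.0313). That call was lost on leaving out any of control replicates 2, 3 and 4 or *il11a*OE replicates 2 and 3 of 7 mpt, with adjusted p of 0.0548 to 0.0804, and within letter F (adjusted p = 0.431).

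**Figure D2:**
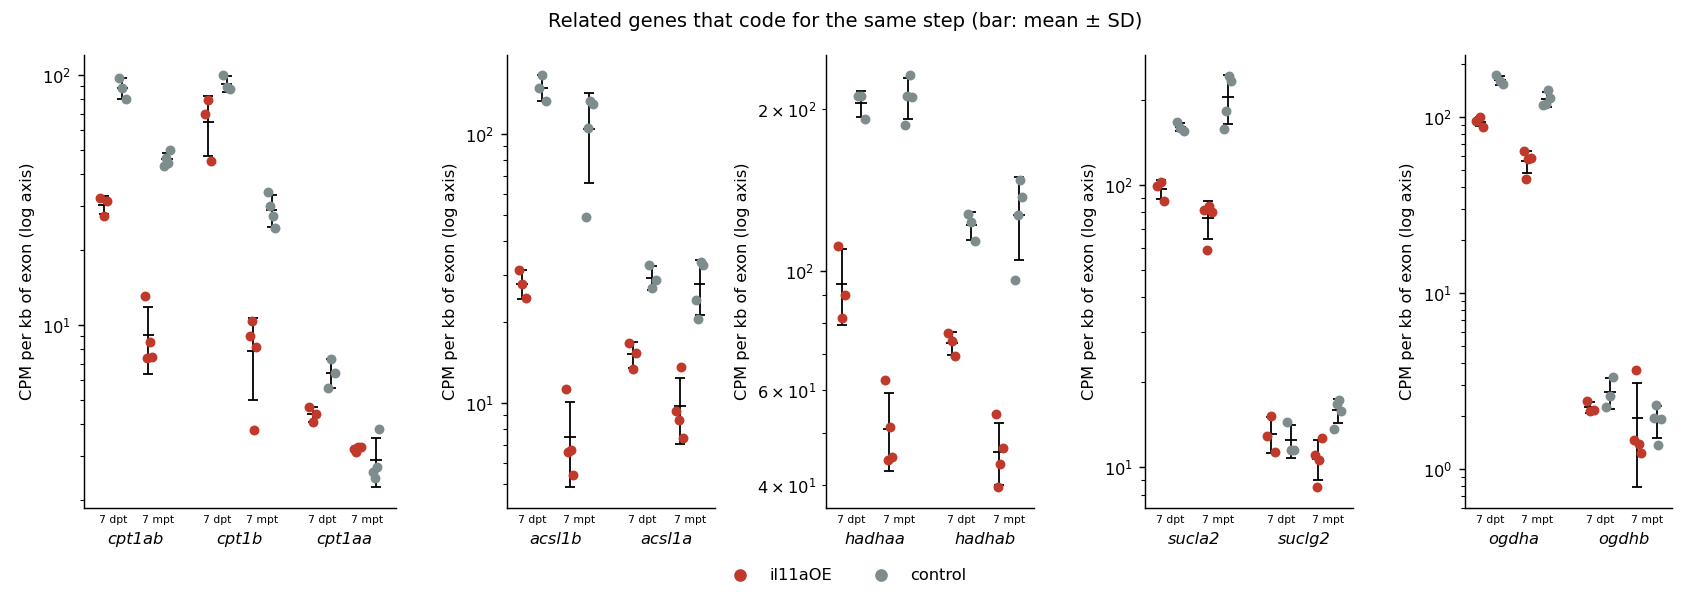
CPM per kilobase of exon (log axis) of related genes that code for the same step, by library, with *il11a*OE in red left of control in grey within each time point, and the mean ± SD as bars. *cpt1ab* and *acsl1b* lie far lower in *il11a*OE hearts, while *cpt1aa* at 7 mpt, *suclg2* at 7 dpt and *ogdhb* at both times overlap between the groups.

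The acyl-CoA dehydrogenases take the first electrons from the chain, each for its own range of chain lengths. The very-long-chain enzyme *acadvl* (chromosome 7, 20298333 to 20333524) had 744, 609 and 623 CPM in *il11a*OE hearts of 7 dpt, against 3647, 3053 and 3236 CPM in controls (-2.33 ± 0.12, edgeR adjusted p = 7.17e-05), the smallest p of all members at that time. The 7 mpt libraries gave 315, 317, 333 and 289 CPM in *il11a*OE hearts, against 1844, 1215, 1634 and 1124 CPM in controls (-2.21 ± 0.19, adjusted p = 8.19e-05). The *il11a*OE libraries differed little among themselves, whereas the controls of 7 mpt spread more widely.

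The other dehydrogenases fell at both times too. The log2 fold changes were -1.27 and -1.61 for the long-chain *acadl*, -1.20 and -1.63 for the medium-chain *acadm* and -0.62 and -1.30 for the short-chain *acads* at 7 dpt and 7 mpt. Within letter F the 7 mpt change of *acads* missed the threshold (-1.13, adjusted p = 0.0945). The *acads* call at 7 dpt was lost without *il11a*OE replicate 2 (adjusted p = 0.0539) and without *il11a*OE replicate 3 (adjusted p = 0.0501).

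The trifunctional protein carries out the last 3 reactions on long chains. Its alpha subunit is coded by *hadhaa* and *hadhab* and its beta subunit by *hadhb*. On chromosome 20 *hadhaa* (47953047 to 47984895, plus strand) and *hadhb* (47927720 to 47953524, minus strand) lie head to head and share 83 bases of exon, where unstranded counting leaves the fragments out of both. *hadhaa* had 307, 225 and 249 CPM in *il11a*OE hearts of 7 dpt, against 582, 584 and 528 CPM in controls (-1.12 ± 0.13, edgeR adjusted p = 0.00117). After 7 months it had 173, 122, 141 and 124 CPM in *il11a*OE hearts, against 514, 584, 637 and 579 CPM in controls (-2.05 ± 0.16, adjusted p = 5.14e-05).

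*hadhab* on chromosome 17 had 239, 232 and 218 CPM in *il11a*OE hearts of 7 dpt, against 399, 387 and 356 CPM in controls (-0.73 ± 0.08, adjusted p = 0.0011). By 7 mpt the values were 169, 124, 137 and 147 CPM in *il11a*OE hearts, against 301, 398, 463 and 429.9 CPM in controls (-1.46 ± 0.17, adjusted p = 0.000303). *hadhaa* was the more abundant alpha gene in controls, with a per-kilobase ratio to *hadhab* of 1.103 to 1.46 in *il11a*OE hearts of 7 dpt against 1.66 to 1.72 in controls, and of 0.96 to 1.17 in *il11a*OE hearts of 7 mpt against 1.53 to 1.94 in controls. The beta gene *hadhb* fell by 0.96 and 1.60 on the log2 scale.

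For shorter chains the same reactions are split between a hydratase, a dehydrogenase and a thiolase. The hydratase *echs1* had 156, 142 and 131 CPM in *il11a*OE hearts of 7 dpt, against 210.3, 194 and 201 CPM in controls (-0.50 ± 0.09, edgeR adjusted p = 0.00626). At 7 mpt it had 111, 83.7, 106 and 110.2 CPM in *il11a*OE hearts, against 232, 246, 261 and 269 CPM in controls (-1.30 ± 0.13, adjusted p = 0.000174). The groups were well apart at 7 mpt and closer at 7 dpt.

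The hydroxyacyl dehydrogenase *hadh* had 88.0, 96.2 and 88.4 CPM in *il11a*OE hearts of 7 dpt, against 165, 159 and 143 CPM in controls (-0.78 ± 0.09, adjusted p = 0.00109). Its 7 mpt levels were 58.7, 45.8, 45.5 and 54.1 CPM in *il11a*OE hearts, against 119.5, 158, 231 and 189.9 CPM in controls (-1.78 ± 0.21, adjusted p = 0.000302). The thiolase *acaa2* fell by 0.63 and 1.42 on the log2 scale, and its 7 mpt controls ran over a wide range, 43.6 to 149 CPM. Within the letters its 7 mpt change missed the threshold, at -1.62 in F (adjusted p = 0.0791) and -1.16 in M (adjusted p = 0.154).

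Unsaturated chains need a further isomerase and a reductase. The isomerase *eci1* had 79.5, 66.5 and 63.9 CPM in *il11a*OE hearts of 7 dpt, against 111, 109 and 105 CPM in controls (-0.63 ± 0.10, edgeR adjusted p = 0.0039). The 7 mpt libraries gave 34.6, 28.0, 24.0 and 29.2 CPM in *il11a*OE hearts, against 65.8, 102, 114 and 120.2 CPM in controls (-1.79 ± 0.20, adjusted p = 0.000274). The reductase *decr1* fell by 0.86 and 1.47 on the log2 scale.

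The electron transfer flavoprotein, of subunits *etfa* and *etfb*, and its oxidoreductase *etfdh* pass the electrons of acyl-CoA dehydrogenases to ubiquinone. *etfdh* had 147, 134 and 127 CPM in *il11a*OE hearts of 7 dpt, against 246, 205 and 224 CPM in controls (-0.73 ± 0.10, edgeR adjusted p = 0.0023). After 7 months it had 99.5, 74.9, 86.1 and 77.7 CPM in *il11a*OE hearts, against 202, 229, 262 and 254 CPM in controls (-1.49 ± 0.14, adjusted p = 0.000134). *etfa* fell by 0.62 and 1.34 and *etfb* by 0.91 and 1.53 on the log2 scale.

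Both listed regulators fell at both times. The coactivator *ppargc1a* (chromosome 7, 70578985 to 70665965), which raises mitochondrial genes by binding nuclear receptors, had 44.2, 51.6 and 37.3 CPM in *il11a*OE hearts of 7 dpt, against 218, 193 and 157 CPM in controls (-2.09 ± 0.17, edgeR adjusted p = 0.000331). By 7 mpt the values were 2.60, 2.26, 2.85 and 2.31 CPM in *il11a*OE hearts, against 5.33, 6.68, 31.4 and 33.8 CPM in controls (-2.94 ± 0.61, adjusted p = 0.00727). The controls of 7 mpt fell apart by letter, low in both F libraries and high in both M libraries, while the *il11a*OE libraries did not. The log2 fold change was -1.30 within letter F (adjusted p = 0.00999) and -3.66 within letter M (adjusted p = 0.000437), and the difference between the letters missed the threshold (2.35 for F minus M, adjusted p = 0.206).

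The nuclear receptor *esrra*, a partner of Ppargc1a, had 10.8, 13.1 and 12.996 CPM in *il11a*OE hearts of 7 dpt, against 24.0, 23.0 and 17.0 CPM in controls (-0.80 ± 0.15, adjusted p = 0.00812). At 7 mpt it had 6.79, 4.28, 6.90 and 5.26 CPM in *il11a*OE hearts, against 19.5, 20.3, 23.5 and 34.0 CPM in controls (-2.07 ± 0.23, adjusted p = 0.000267). Over all 18689 genes, none differed in its effect between the letters at an adjusted p under 0.05 and 1192 did at an unadjusted p under 0.05, among them 3 of the 48 members.

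**Figure D3:**
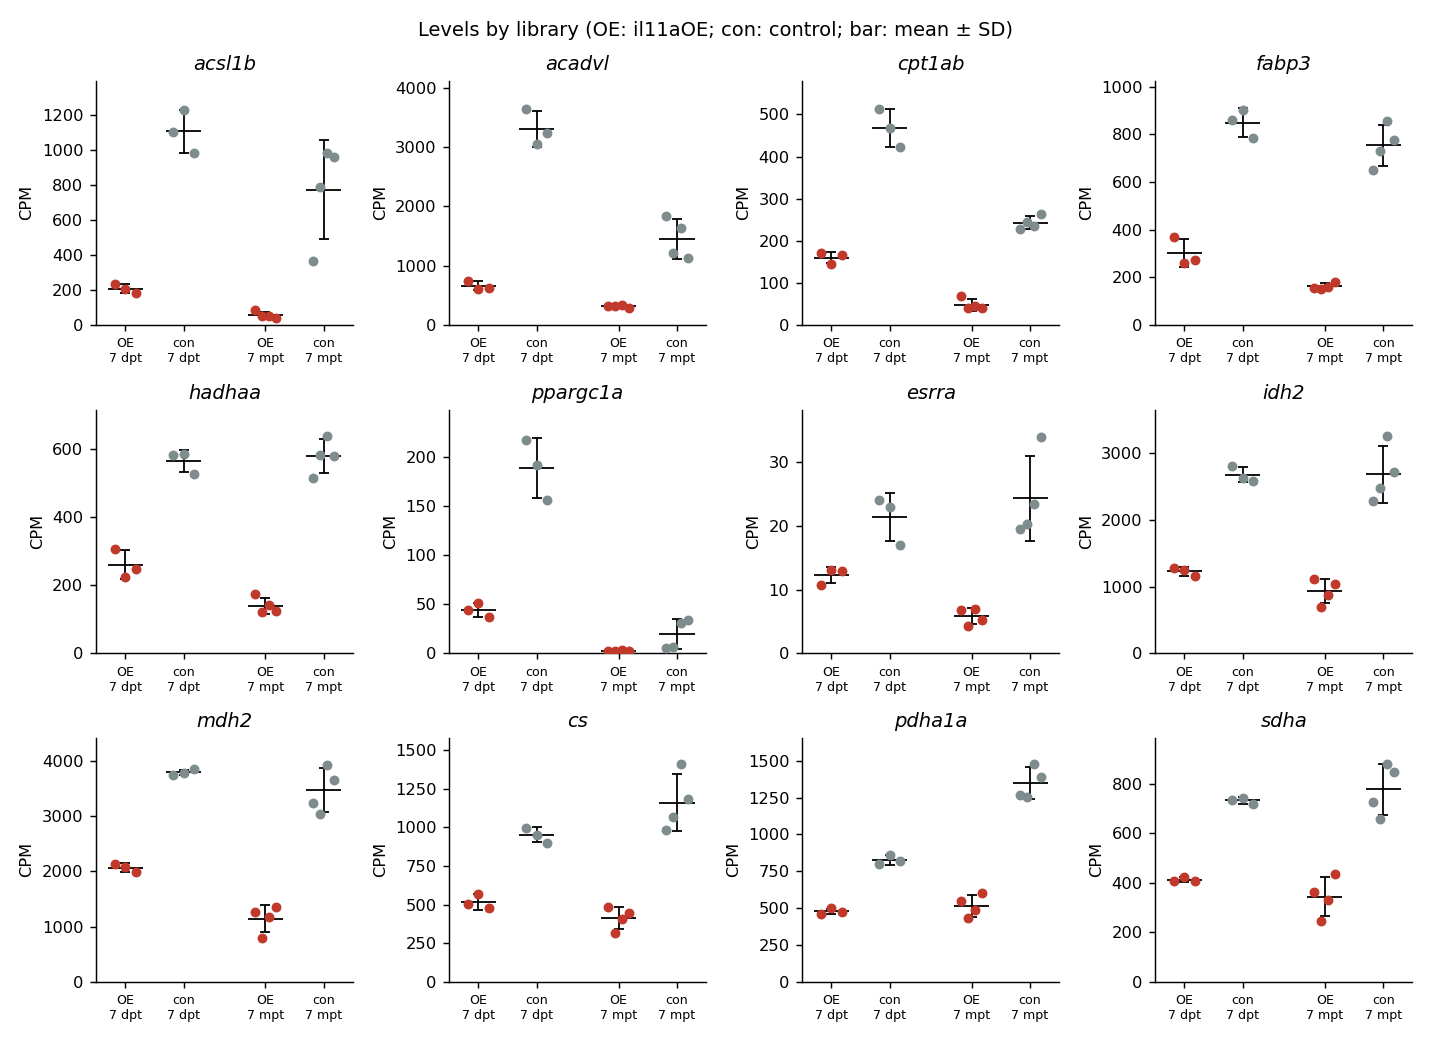
CPM of 12 members in each library, with *il11a*OE (red) left of control (grey) at 7 dpt and then at 7 mpt, and the mean ± SD as bars; levels are not comparable between the time points. The groups do not overlap in any panel, and the *ppargc1a* controls of 7 mpt form a low and a high pair, 5.33 and 6.68 CPM and then 31.4 and 33.8 CPM.

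A contrast over all 14 libraries, the 7 mpt effect minus the 7 dpt effect, asked whether *il11a*OE acted differently at the 2 times. The estimate at 7 mpt was the more negative for 21 of 22 TCA and 23 of 25 FAO genes tested at both times, with *ogdhb*, *acadvl* and *cpt1aa* as the exceptions. In the test of the difference itself, 6 of 26 FAO genes and 0 of 22 TCA genes were called more negative at 7 mpt by edgeR, where 2.27% of 21317 genes were, 2.14% were less negative or more positive, and 4.41% were called in all. These were *echs1* (-0.81, adjusted p = 0.0178), *eci1* (-1.18, 0.0229), *hadhaa* (-0.94, 0.0246), *etfdh* (-0.77, 0.0356), *esrra* (-1.28, 0.0399) and *hadh* (-1.02, 0.0413). Of them, 3 code for enzymes of the beta-oxidation spiral, *echs1*, *hadhaa* and *hadh*.

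At an unadjusted p under 0.05, 16 FAO and 13 TCA genes were more negative at 7 mpt, and 1 FAO gene, *cpt1aa*, was less so, where 2285 of the 21317 genes were more negative and 2119 were the opposite. DESeq2 called 10 FAO genes and 1 TCA gene more negative and 1 FAO gene less negative, and its share over all genes is not given here. The calls hung on single libraries: none of the 6 held without control replicate 2, control replicate 3 or *il11a*OE replicate 1 of 7 dpt, and over all libraries left out in turn the count of FAO genes ran from 0 to 12. The number of FAO genes called was 1 without control replicate 1 of 7 dpt, 3 without *il11a*OE replicate 2 or 3 of 7 dpt or control replicate 3 of 7 mpt, and 12 without control replicate 1 of 7 mpt. The shares of all genes called in these fits are not given here, so the counts cannot be set against them. Across the 47 members tested at both times, the effects at 7 dpt and 7 mpt ran in parallel (Pearson's r = 0.83, Spearman's rho = 0.78), a description over genes, which share their libraries and are not independent replicates.

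**Figure D4:**
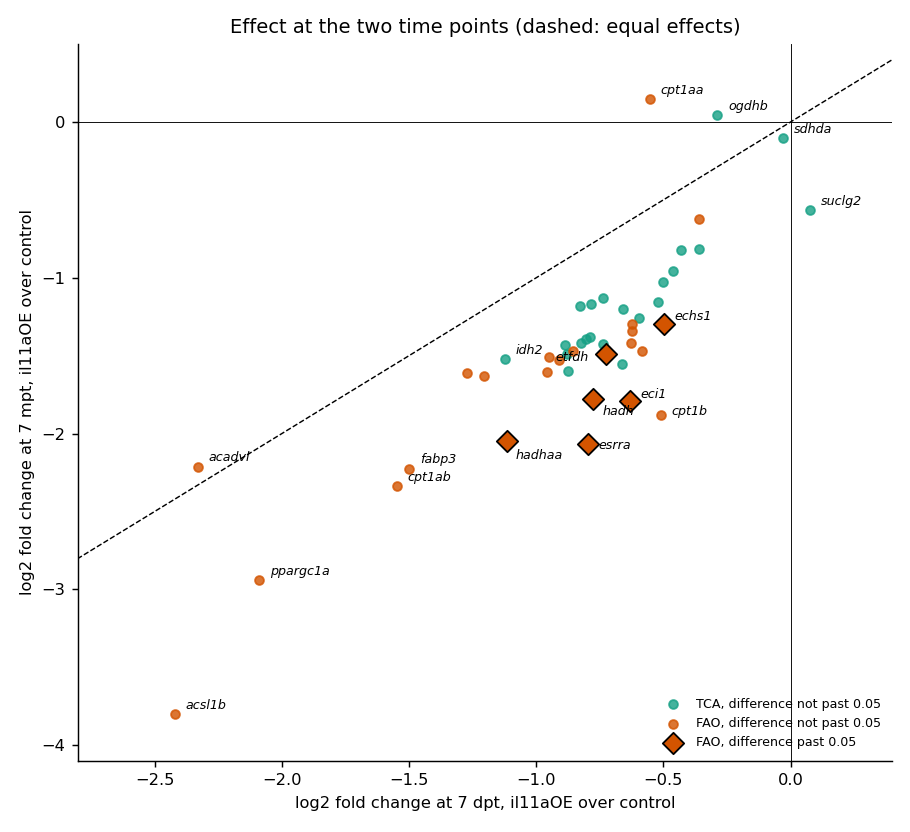
Log2 fold change of *il11a*OE over control at 7 dpt (x axis) and at 7 mpt (y axis) for the 47 members tested at both times, one point per gene, with a dashed line of equal effects and diamonds for the 6 FAO genes whose difference passed an adjusted p of 0.05. Most points lie below the line, and *acadvl*, *cpt1aa* and *ogdhb* lie above it.

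Further genes of both pathways and related to them, outside the 49 symbols, were taken from wider lists of known enzymes, carriers and regulators. The wider FAO list also holds other acyl-CoA and ketone enzymes and genes for lipid stores and lipolysis, which are not all steps of fatty acid oxidation. Over all genes tested, the shares called were 17.1% lower and 20.2% higher at 7 dpt, and 12.2% lower and 14.2% higher at 7 mpt. Of 35 wider TCA genes tested at 7 dpt, 19 fell and 2 rose (median log2 fold change -0.48, and 18 and 1 without control replicate 2), and of 34 at 7 mpt 21 fell and 0 rose (median -0.93, with 1 higher at an unadjusted p under 0.05). The pyruvate carrier subunits *mpc1* and *mpc2a* fell by 0.69 and 0.97 at 7 dpt and by 1.32 and 1.90 at 7 mpt on the log2 scale. The phosphatase *pdp1*, which switches pyruvate dehydrogenase on, fell by 0.95 and 2.30.

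Of 8 tested genes for the kinases and phosphatases that control pyruvate dehydrogenase, 3 fell at 7 dpt and 4 at 7 mpt, *pdp1* among them at both times. Of the kinases, which switch the enzyme off, *pdk2b* averaged 62.8 CPM in *il11a*OE hearts and 201 CPM in controls at 7 dpt (-1.68, edgeR adjusted p = 0.0053), and *pdk4* averaged 11.5 CPM in *il11a*OE hearts and 28.3 CPM in controls at 7 mpt (-1.29, adjusted p = 0.00131). Carriers that exchange dicarboxylates and aspartate across the inner membrane, *slc25a10b*, *slc25a11* and *slc25a12*, fell by 1.38, 0.66 and 0.87 at 7 dpt and by 1.32, 1.26 and 1.32 at 7 mpt. The scarce carrier *slc25a13* fell by 1.02 at 7 dpt. At 7 mpt *pdhx*, which anchors the E3 subunit, and the complex II assembly factor *sdhaf2* fell by 1.14 and 1.01 and the aspartate aminotransferases *got1* and *got2b* by 1.03 and 1.01. A scarce E1 alpha paralogue, *pdha1b*, rose at 7 dpt, to 4.17 ± 1.76 CPM in *il11a*OE hearts against 1.24 ± 0.31 CPM in controls (SD, n = 3 each; 1.74, adjusted p = 0.00851).

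Of 58 wider FAO genes tested at 7 dpt, 27 fell and 8 rose (median -0.32, and 22 and 4 of 59 without control replicate 2), and of 56 at 7 mpt 27 fell and 3 rose (median -0.63). The 22 other acyl-CoA and ketone enzymes made up much of these counts, with 15 lower and 2 higher at 7 dpt and 17 lower and 1 higher at 7 mpt. The long-chain acyl-CoA synthetase *acsl4b*, whose mammalian relative ACSL4 favours arachidonic acid, rose at both times, averaging 48.5 CPM in *il11a*OE hearts against 23.3 CPM in controls at 7 dpt (1.06, edgeR adjusted p = 0.00329) and 27.8 CPM in *il11a*OE hearts against 7.92 CPM in controls at 7 mpt (1.81, adjusted p = 0.00144). Its paralogue *acsl4a* fell by 1.66 and 1.38. The lipid droplet coat gene *plin2* rose at 7 mpt, averaging 2.44 CPM in *il11a*OE hearts and 0.594 CPM in controls (2.03, adjusted p = 0.00355).

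Genes for malonyl-CoA, which inhibits carnitine palmitoyltransferase 1, fell on both the making and the removing side: *acacb* by 1.27 and 1.47, and the decarboxylase *mlycd* by 0.84 and 1.77 on the log2 scale. Among nuclear receptors, *pparab* fell by 1.60 at 7 dpt and *pparaa* by 0.77 and 1.90. The transcriptional regulators of the wider FAO list did not all fall: of 12 tested at 7 dpt 4 fell and 2 rose, and of 10 at 7 mpt 3 fell and 0 rose. These are small counts beside the shares of all genes, 17.1% lower and 20.2% higher at 7 dpt and 12.2% and 14.2% at 7 mpt. Among the other acyl-CoA and ketone enzymes, more than 2-fold falls were called at 7 mpt for *acad8*, *acad9*, *ivd*, *gcdha*, *eci2* and *acat1*, by 1.21, 1.57, 1.01, 1.23, 1.36 and 1.55. The lipolysis gene *mgll* fell by 1.49. At 7 dpt the scarce genes *fabp10a*, *acsl2* and *esrrb*, at or under 1.39 CPM on average in both groups, fell by 3.91, 2.30 and 2.06, and *slc27a2a*, also under 1 CPM, rose by 1.01.

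Heart muscle genes and other cell types moved in the same samples. Of all genes tested, 17.1% were called lower and 20.2% higher at 7 dpt, and 12.2% lower and 14.2% higher at 7 mpt. Of 24 cardiomyocyte markers, 14 fell and 2 rose at 7 dpt (median -0.68) and 16 fell and 0 rose at 7 mpt (median -0.97, with 1 higher at an unadjusted p under 0.05 by edgeR). Their summed level was 60460.3 to 74678 CPM in *il11a*OE hearts of 7 dpt, against 97028 to 110778 CPM in controls, and 34708 to 62237 CPM in *il11a*OE hearts of 7 mpt, against 91468 to 124932 CPM in controls. Of 13 epicardial and fibroblast markers, 4 rose and 2 fell at 7 dpt and 11 rose at 7 mpt, with sums of 4849.7 to 7492 CPM in *il11a*OE hearts against 1271 to 1563 CPM in controls at 7 dpt, and 14928 to 19959 CPM in *il11a*OE hearts against 1231 to 2074 CPM in controls at 7 mpt. At 7 dpt these markers did not move together: 7 were not called, 5 had a negative log2 fold change and the median was 0.20. At 7 mpt the median was 2.76. Of 7 macrophage markers, 7 and 6 rose, with sums of 656 to 837 CPM in *il11a*OE hearts against 289 to 353 CPM in controls at 7 dpt, and 944 to 1106 CPM in *il11a*OE hearts against 122 to 252 CPM in controls at 7 mpt. None of the markers in these 3 lists was at 0 in all libraries of a time. Lymphoid markers rose too, 8 of 8 tested at 7 dpt and 6 of 9 at 7 mpt, with sums of 7.68 to 16.6 CPM in *il11a*OE hearts against 2.55 to 3.10 CPM in controls at 7 dpt, and 11.8 to 18.8 CPM in *il11a*OE hearts against 1.87 to 3.23 CPM in controls at 7 mpt. Of 11 endothelial markers, 4 fell and 1 rose at 7 dpt and 9 fell and 1 rose at 7 mpt, with sums of 1605 to 1743 CPM in *il11a*OE hearts against 1866 to 2091 CPM in controls at 7 dpt, and 593 to 745 CPM in *il11a*OE hearts against 818 to 1146 CPM in controls at 7 mpt. Of 5 erythroid markers, 4 fell at 7 dpt, with sums of 902 to 1461 CPM in *il11a*OE hearts against 1827 to 4174 CPM in controls, and their sums overlapped at 7 mpt. Neutrophil sums were 62.7 to 73.6 CPM in *il11a*OE hearts against 35.0 to 41.8 CPM in controls at 7 dpt, and 103 to 326 against 31.6 to 77.1 CPM at 7 mpt. Of the neutrophil markers, 2 of 4 tested rose at 7 dpt and 2 of 5 at 7 mpt, and 0 fell. Adipocyte sums were 130 to 210 against 242 to 326 CPM at 7 dpt, and 161 to 204 against 56.0 to 93.7 CPM at 7 mpt. The adipocyte markers did not move together: of 6 tested at 7 dpt 1 fell and 2 rose (median 0.42), and of 5 at 7 mpt 0 fell and 2 rose (median 0.05). Liver sums overlapped at 7 dpt and were 858 to 2561 against 19.0 to 113 CPM at 7 mpt. Of 7 liver markers tested at 7 mpt, however, only 2 were called higher and 0 lower, and 4 had a negative log2 fold change (median -0.43). Smooth muscle sums overlapped at both times. Without control replicate 2 of 7 dpt, 14 cardiomyocyte markers fell and 3 rose, 1 epicardial and fibroblast marker fell and 4 rose, 4 endothelial markers fell and 1 rose, 7 macrophage and 6 lymphoid markers rose, and 3 erythroid markers fell. In bulk hearts, fewer cardiomyocytes and less RNA of these genes per cardiomyocyte cannot be told apart, and the part of cell composition in the falls was not tested.

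The sums were also set against the summed cardiomyocyte list, library by library. The FAO sum came to 6.82%, 5.35% and 6.22% of the cardiomyocyte sum in *il11a*OE hearts of 7 dpt, against 10.5%, 11.1% and 10.2% in controls. The 7 mpt shares were 5.26%, 5.54%, 4.49% and 3.48% in *il11a*OE hearts, against 7.75%, 8.41%, 7.11% and 7.81% in controls. The FAO share was thus lower in every *il11a*OE library at both times.

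The TCA sum was 11.2% to 12.7% of the cardiomyocyte sum in *il11a*OE hearts of 7 dpt, against 13.3% to 14.8% in controls, and 11.1% to 13.7% in *il11a*OE hearts of 7 mpt, against 14.2% to 15.2% in controls. A list of 66 nuclear respiratory chain genes, most of which also fell (55 of 64 tested at 7 dpt, median -0.59, and 58 of 64 at 7 mpt, median -1.22, with 1 higher at each time, and 52 of 64 at 7 dpt without control replicate 2), gave overlapping shares: 26.2% to 29.1% in *il11a*OE hearts against 26.5% to 28.7% in controls at 7 dpt, and 25.7% to 28.5% in *il11a*OE hearts against 27.0% to 31.9% in controls at 7 mpt. These shares are a description chosen after seeing the data, and whether the lists differ from each other was not tested. By gene, the TCA median at 7 dpt was -0.70, against -0.68 for the cardiomyocyte markers and -0.59 for the respiratory chain. At 7 mpt the medians were -1.19, -0.97 and -1.22 in that order. The sums are led by their most abundant genes, and the share of counts on the mitochondrial genome, 11.7% to 13.6% in *il11a*OE hearts against 15.0% to 16.4% in controls at 7 dpt and 18.7% to 22.9% in *il11a*OE hearts against 27.0% to 30.6% in controls at 7 mpt, moved with them.

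**Figure D5:**
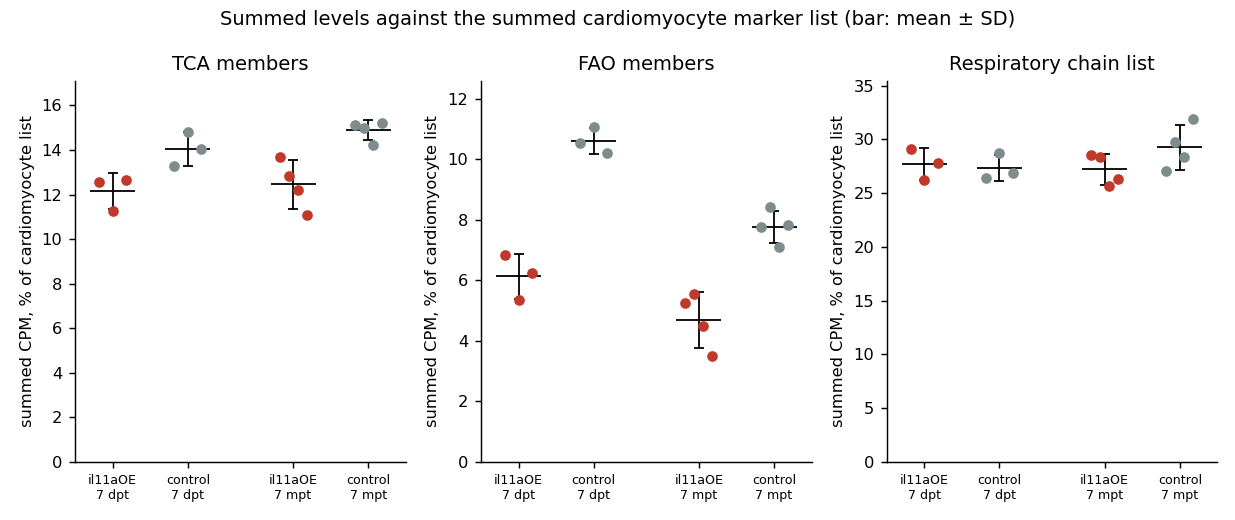
Summed CPM of the TCA genes, the FAO genes and the respiratory chain list as a percent of the summed cardiomyocyte markers in each library, *il11a*OE (red) left of control (grey) at 7 dpt and 7 mpt, with the mean ± SD as bars. FAO shares of *il11a*OE hearts, 3.48% to 6.82%, lie below the controls of their own time, while those of the respiratory chain overlap.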

How the data were processed

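Genotype and treatment labels put 14 heart RNA-seq libraries in 4 groups. The authors aligned reads to GRCz11 with HISAT2 and counted them on Ensembl 104 exons with featureCounts 2.0.0, ignoring strand and multi-mapping or ambiguous reads, and deposited unnormalised counts for each gene. At 7 dpt read pairs were counted and at 7 mpt each mate, which raises counts without adding molecules. The small number of libraries limits precision. The methods give 3 pools per group, whereas 4 libraries of 7 mpt were used here. Symbols were matched by the reference gene names (34), by names in the supplementary tables (7) or by a name without the paralogue letter and its RefSeq chromosome (7). No sequences are shown.

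Genes were filtered with filterByExpr, libraries scaled with TMM and each time point tested alone with edgeR 4.0.16 (quasi-likelihood, robust; R 4.3.3, limma 3.58.1), with Benjamini-Hochberg adjustment over all genes and 0.05 as threshold. CPM used the scaled library sizes, and levels per kilobase the summed exon length. The SE was derived from the test, as the absolute log2 fold change before edgeR's shrinkage over the square root of the quasi-likelihood F statistic. Members and lists were chosen with earlier results of these data known. Every library's value is given for the 4 members with the smallest p and those with the largest change in each direction, by pathway and time, for paralogue sets, both regulators and genes called between the times, 27 in all; wider-list genes are named past a 2-fold change, except 1 that is not reported here. Alternatives for every comparison were DESeq2 1.42.0 and its size factors, other count filters and each library left out. A common fit and the replicate block were run only for the comparisons within a time point, and the library letter only at 7 mpt. Counts of 7 mpt were halved only for the difference between the times. The tests were tried on simulated counts with known changes. There edgeR missed many 2-fold changes, most of all in the difference between the times, and DESeq2 had the larger share of false calls in every comparison. The share of false calls by edgeR was itself above the threshold of 0.05 at 7 dpt and in the difference, and under it at 7 mpt.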

Additional observations from a re-analysis of the deposited data

Results flagged for a closer look

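In *il11a*OE hearts of 7 mpt, replicate 2 lay far from the other libraries of its group for *ogdhb* (23.9 CPM, the others 8.09 to 9.58 CPM) and for *sucla2* (124 CPM, the others 169 to 177 CPM). These were 2 of 96 groups of 4 libraries examined by Dixon's criterion (the gap to the nearest library over the range of the group), which chance passes in about 1 of 20.

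The effect of *il11a*OE was more negative at 7 mpt than at 7 dpt, by the test of the difference, for *hadhaa* (-0.94), *hadh* (-1.02), *echs1* (-0.81), *etfdh* (-0.77), *eci1* (-1.18) and *esrra* (-1.28, log2 scale). These calls hung on single libraries, with 0 to 12 FAO genes called when each library was left out in turn. The shares of all genes called in those fits are not given here. The time points also differ in how reads were counted.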

How the results depend on the processing

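The counts of TCA and FAO genes called lower stayed within 1.5 times of the values given, and no member that was called changed its sign, under any alternative run. With all 14 libraries in one fit, 14 TCA and 20 FAO genes were called lower at 7 dpt. The 7 dpt calls lost there were those of *idh3a*, *idh3g*, *sdhc*, *fh*, *mdh1aa*, *cpt2*, *acads* and *acaa2* (edgeR adjusted p of 0.0763 to 0.254). The share of all genes called lower in that fit is not given here. Leaving out one library each, the TCA median ranged from -0.77 to -0.60 at 7 dpt, reaching -0.60 without *il11a*OE replicate 3. The FAO median at 7 mpt was -1.38 within letter F and -1.74 within letter M. For the difference between the times, DESeq2 in place of edgeR gave 10 FAO genes and 1 TCA gene more negative at 7 mpt and 1 FAO gene less negative. Leave-one-out counts ran from 0 to 12 for FAO and from 0 to 3 for TCA genes more negative (2 TCA genes without control replicate 1 and 3 without *il11a*OE replicate 4 of 7 mpt), and from 0 to 1 for FAO genes less negative (1 without control replicate 4 of 7 mpt). The shares of all genes called in the leave-one-out fits of the difference are not given here. DESeq2's size factors put the median of all genes at -0.02 at 7 dpt in place of 0.02. Deviations from the group mean correlated at -0.02 to 0.16 at 7 dpt and -0.04 to 0.06 at 7 mpt between same-numbered libraries of the groups. Between differently numbered libraries they correlated at -0.11 to 0.09 and -0.15 to 0.17. With so few libraries, these values cannot settle whether the numbers pair samples. With the replicate block, 19 TCA and 23 FAO genes were called lower at 7 dpt and 20 and 24 at 7 mpt, and the share of all genes is not given here. The labels do not say which fish went into each pool, so p-values measure only the spread between these libraries, and the few counts of *cd36* (1 to 25 per library at 7 dpt) limit what can be said of it.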
